A study of Mus musculus with 12 samples.

Results

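ZFAT, WNK1 and RPA1 are the human genes whose bodies hold the 3 most enriched RbFox1 eCLIP peaks of the T-REx-293 experiment. They were chosen by the log2 fold enrichment of those peaks, and their other peaks were then taken by position, on the strand of the gene, within the gene bodies in hg38. Together they hold 48 of the 24831 human peaks, which is 0.193% of the list. WNK1 has 22 of them, ZFAT 16 and RPA1 10. Because the enrichment chose the genes, every enrichment below is a description, and no test was made on it.

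eCLIP reads the RNA fragments that ultraviolet light joins to a protein and that an antibody then recovers. The cells were T-REx-293, a human embryonic kidney line, in the clonal line 77-5, which carries the mouse Ntrk2 (TrkB) BAC minigene and makes Rbfox1 from a doxycycline-inducible gene. The human list sets 2 immunoprecipitated libraries of 77-5 cells with doxycycline (+Dox, 48 h) against 2 of the same line without it (No Dox). The dose is 0.5 mg/ml in the labels, while legends of the study give it in μg/ml. Both groups of this list carry the intact minigene, and all its peaks come from 1 clone. Of the 12 libraries of the series, 2 come from the 32-1 line, whose minigene lacks both motif clusters, and 6 are inputs that were put in no group. The human list makes no comparison with the 32-1 libraries. The authors' methods calculate an enrichment over input for each peak. Whether that enrichment had a part in choosing the peaks of this list is not given in the sources used here. Each peak has 1 log2 fold enrichment (+Dox over No Dox) and 1 −log10 p, both the authors' values merged over replicates. There are 0 columns of single libraries, so no spread between replicates can be given, and the read depth is unknown.

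RbFox proteins bind the RNA sequence (U)GCAUG, in introns and in the ends of transcripts, and are best known for setting which alternative exons enter the mRNA in brain, heart and skeletal muscle. They act from sites near an exon as well as from sites deep inside introns. The genes described here do unrelated work. ZFAT encodes a nuclear protein with zinc fingers and an AT-hook, known from the survival and development of blood and immune cells. WNK1 encodes a kinase that senses chloride and osmotic stress, and that acts through the kinases OXSR1 and STK39 on the cotransporters that move sodium, potassium and chloride. It is a gene with many splice forms, some of which differ between kidney, nervous system and other tissues. RPA1 encodes the large subunit of replication protein A, the trimer that coats single-stranded DNA in replication, repair and recombination. Exon borders and the human genome sequence were not used here, so peaks are placed by their distance from the ends of the gene body and not by exon, intron or motif.

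The strongest peak of the whole list lies in ZFAT, at chr8:134510086-134510189 on the − strand, with a log2 fold enrichment of 6.79. This is 111-fold more normalized reads with doxycycline than without it. The second lies in WNK1, at chr12:865276-865407 on the + strand, with a log2 fold enrichment of 6.78 (110-fold). The third lies in RPA1, at chr17:1898234-1898268 on the + strand, with 6.76 (108-fold). The read counts behind these ratios are not given, and the part of few No Dox reads in them was not tested. The 3 values differ by at most 0.04 on the log2 scale, so the order among them rests on a very small difference that has no error. The peaks just outside this selection were hardly lower. The fourth, at chr22:40967070-40967140, reached 6.70 on the log2 scale, and the fifth, at chr5:177490220-177490255, reached 6.68. The sixth, at 6.63, was again a ZFAT peak, and so was the tenth, at 6.54.

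The strongest peaks were not alike in width or in p. That of WNK1 was 132 nt wide, that of ZFAT 104 nt and that of RPA1 35 nt, against a median of 82 nt over the list. Their −log10 p was 131 in WNK1, 150.5 in ZFAT and 39.5 in RPA1. The ZFAT value is the highest in the list below 400. The list ends at 400, which 510 peaks share and which is taken here as a cap, not as a measured p. The RPA1 peak ranked 2132 by −log10 p although it ranked 3 by enrichment.

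Read over all their peaks, the median log2 fold enrichment was 5.77 in ZFAT (quartiles 4.12 and 6.30), 5.61 in RPA1 (5.25 and 5.98) and 3.61 in WNK1 (3.29 and 4.21). Over all human peaks it was 3.68 (3.33 and 4.14). All 10 RPA1 peaks and 14 of the 16 ZFAT peaks lay above the median of the list, but only 9 of the 22 WNK1 peaks did. Of the whole list, 4.33% of peaks had a log2 fold enrichment of at least 5. The count was 10 of 16 in ZFAT, 8 of 10 in RPA1 and 3 of 22 in WNK1. A value of at least 6 was reached by 0.226% of the list, or 56 peaks, and by 7 peaks in ZFAT, 2 in RPA1 and 1 in WNK1. A joint threshold of 4 for this value and of 1e-05 for p was passed by 29.0% of the list, and by 11, 9 and 8 peaks. The contrast that chose the genes is also the one behind these counts, so nothing is read from them about the genes.

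**Figure D1:**
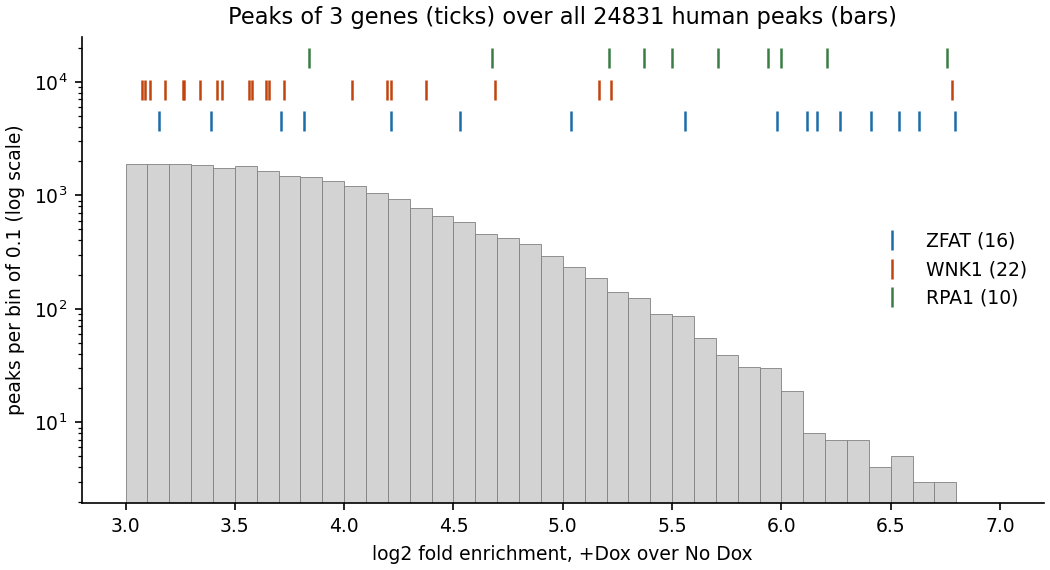
Histogram of the log2 fold enrichment (x axis, +Dox over No Dox) of all 24831 human peaks (grey bars, peaks per bin of 0.1 on a log scale), with each peak of ZFAT, WNK1 and RPA1 as a coloured tick. Most WNK1 ticks lie in the bulk of the list and 1 at its far end, while 9 of the 10 RPA1 ticks and 12 of the 16 ZFAT ticks lie above the upper quartile of the list, 4.14.

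The distance from the strongest peak to the second was largest in WNK1 and smallest in ZFAT. In WNK1 the second peak, at 5.22, was 1.56 lower on the log2 scale, and no other WNK1 peak came within 2-fold of the strongest. In RPA1 the second peak, at 6.21, was 0.55 lower. In ZFAT it was 0.16 lower. Counting the strongest itself, 8 peaks in ZFAT came within 2-fold of it, over 724 nt in all, and 4 in RPA1, over 294 nt. In WNK1 this was the single peak of 132 nt.

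In ZFAT the highest enrichments came from a single stretch in the 3′ part of the gene. The gene body, at chr8:134477788-134713049, is 235 kb long and holds 16 peaks in 5 groups, a group being peaks on the same strand with at most 500 nt between neighbours. From the 5′ end, the first 4 groups lie 70.0, 82.9, 102 and 114 kb into the gene, and the last starts 202 kb into it. Between the fourth and the last group, 88422 nt of the gene carry no peak of the list. The last group has 10 peaks in 862 nt, of which the peaks cover 91.9%, and the middle of its last peak lies 32.1 kb before the 3′ end of the body. Its peaks had log2 fold enrichments from 4.53 to 6.79 with a median of 6.22.

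In the direction of transcription, this ZFAT group opened with a peak of 44 nt at 6.54, which corresponds to 92.8-fold. The next were at 5.98, 5.56 and 6.12, each touching the one before it. After 26 nt without a peak came one of 133 nt at 6.16, the widest of the group, and directly after it one of 27 nt at 4.53, the narrowest and by far the least enriched. The strongest peak followed 28 nt further on. It was touched on its 3′ side by the list's sixth peak, 105 nt wide at 6.63, and the group closed with peaks at 6.27 and 6.41. Thus the group had no single summit, and its first and last peaks were still 92.8-fold and 85.1-fold enriched. The peak of 27 nt was 4.80-fold below the strongest peak.

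The other 6 ZFAT peaks were weaker. Their log2 fold enrichment ran from 3.15 to 5.04, with a median of 3.76, and their −log10 p from 4.26 to 11.4. The most 5′ of them, at chr8:134642977-134643125, stood alone with 4.22. A second single peak, at chr8:134630097-134630278, was 182 nt wide and had 3.82. The pair around 102 kb had 3.71 and 5.04, the second of which, at chr8:134611073-134611183, was the sole peak outside the last group with a value of at least 5. The pair at 114 kb had 3.15 and 3.39, both under the median of the list. In the last group the −log10 p ran from 14.0 upwards, so no ZFAT peak outside this group reached its lowest value.

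RPA1 had all of its peaks in 1 stretch close to the 3′ end. The body, at chr17:1829702-1900082, is 70.4 kb long. Its 10 peaks form 1 group of 671 nt, 0.953% of the body, from chr17:1897974 to chr17:1898644. The first lies 68.3 kb from the 5′ end and the middle of the last 1.49 kb before the 3′ end. No peak was listed in the part of the gene before them. The peaks cover 90.2% of the group, and 6 of them touch the peak before.

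Along RPA1 the enrichment climbed over the first 5 peaks and then stayed high. From 5′ to 3′ the log2 fold enrichment was 3.84, 4.68, 5.21, 5.71 and 6.76. The last of these is the strongest peak, and its middle lies 258.5 nt after that of the first. The 5 peaks after it were 61.3-fold, 64.0-fold, 45.2-fold, 74.1-fold and 41.4-fold enriched, against 108-fold in the strongest. All 5 were more enriched than each of the first 3 peaks, the third of which was 37.0-fold enriched. The last was 2.62-fold below the strongest and the first 7.57-fold below it. The −log10 p did not have its highest value at the strongest peak. It was 71.3 at chr17:1898380-1898458, the 64.0-fold enriched peak, which was 79 nt wide against 35 nt.

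WNK1 had the most peaks, in the most groups. The body, at chr12:752579-911452, is 159 kb long and holds 22 peaks in 8 groups, 4 of which are single peaks. The first peak, at chr12:815394-815479 with a log2 fold enrichment of 3.26, lies 62.9 kb from the 5′ end, and 47202 nt without a peak follow it. The other 21 lie between 110 kb and 154 kb, and the last of them ends near the 3′ end, its middle 5.29 kb before it. Of the 22, 11 lie beyond 80% of the length of the body.

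Apart from the first peak and a single peak at 129 kb, the WNK1 peaks fell into an inner part around the strongest peak and an outer part near the 3′ end. The inner part opens with 4 peaks at 110 kb, in 291 nt, with log2 fold enrichments of 3.73, 4.22, 3.58 and 3.18. The group of the strongest peak follows after 1966 nt, with 5 peaks in 488 nt. Its first 2 peaks, 31 and 11 nt wide, had 3.27 and 3.42. The next, at chr12:865098-865205, had 5.22, then came the strongest at 6.78 and, touching it, a peak of 19 nt at 5.16. The neighbours on either side were thus 2.95-fold and 3.07-fold below the strongest. Another 2280 nt on, the single peak at chr12:867707-867920 was 214 nt wide, the widest of all 48, and had 4.69 with a −log10 p of 32.9. Between the inner and the outer part, a peak with 3.56 stood alone at 129 kb.

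The outer part of WNK1 was mixed. At 149 kb, 3 touching peaks had 4.20, 4.37 and 4.04, all above the median of the list, with −log10 p of 16.2, 10.4 and 18.1. A single peak at 150.4 kb had 3.11. The last group, from chr12:905532 to chr12:906203, was the largest of the gene, with 6 peaks in 672 nt. Its log2 fold enrichment ran from 3.07 to 3.65, all 6 under the median of the list, and the lowest 2 values of the gene, 3.07 and 3.09, lay here. Its −log10 p ran from 20.3 to 51.6, with a median of 42.0. In the group of the strongest peak the median was 8.27, since 3 of its 5 peaks had a −log10 p under 10.

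**Figure D2:**
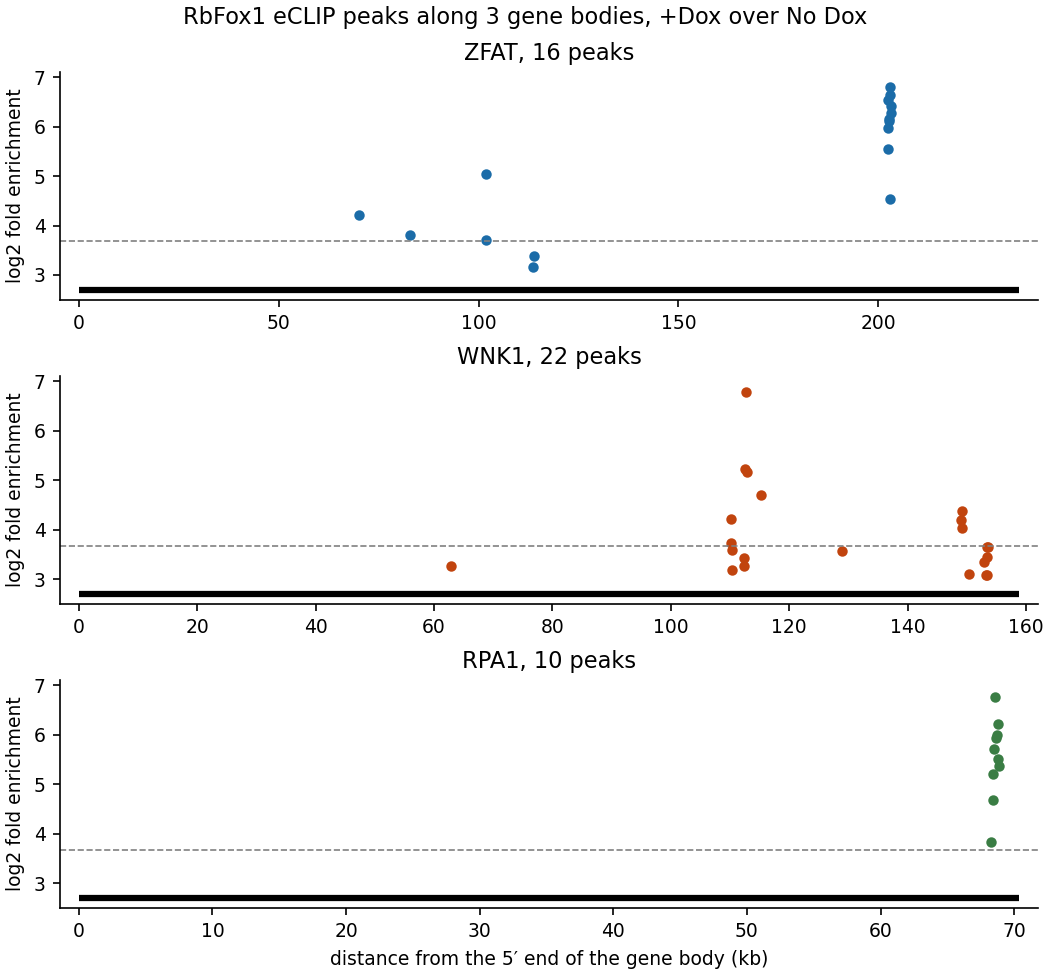
Log2 fold enrichment (y axis, +Dox over No Dox) of each peak against its distance from the 5′ end of the gene body in kb (x axis), for ZFAT, WNK1 and RPA1. Each point is a peak, the black bar is the gene body and the dashed line the median of all human peaks, 3.68. The strongest peaks lie 203 kb, 113 kb and 68.5 kb from the 5′ end.

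The places of the strongest peaks therefore differed. Taken along the body, that of RPA1 lies at 97.4% of its length, that of ZFAT at 86.3% and that of WNK1 at 71.0%. From the 3′ end of the body it was 1.83 kb in RPA1, 32.4 kb in ZFAT and 46.1 kb in WNK1. The first listed peak lay 62.9 kb from the 5′ end in WNK1, 68.3 kb in RPA1 and 70.0 kb in ZFAT, which is 39.6%, 97.0% and 29.8% of the body. Before the middle of the body lay 6 peaks in ZFAT, 1 in WNK1 and 0 in RPA1.

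**Figure D3:**
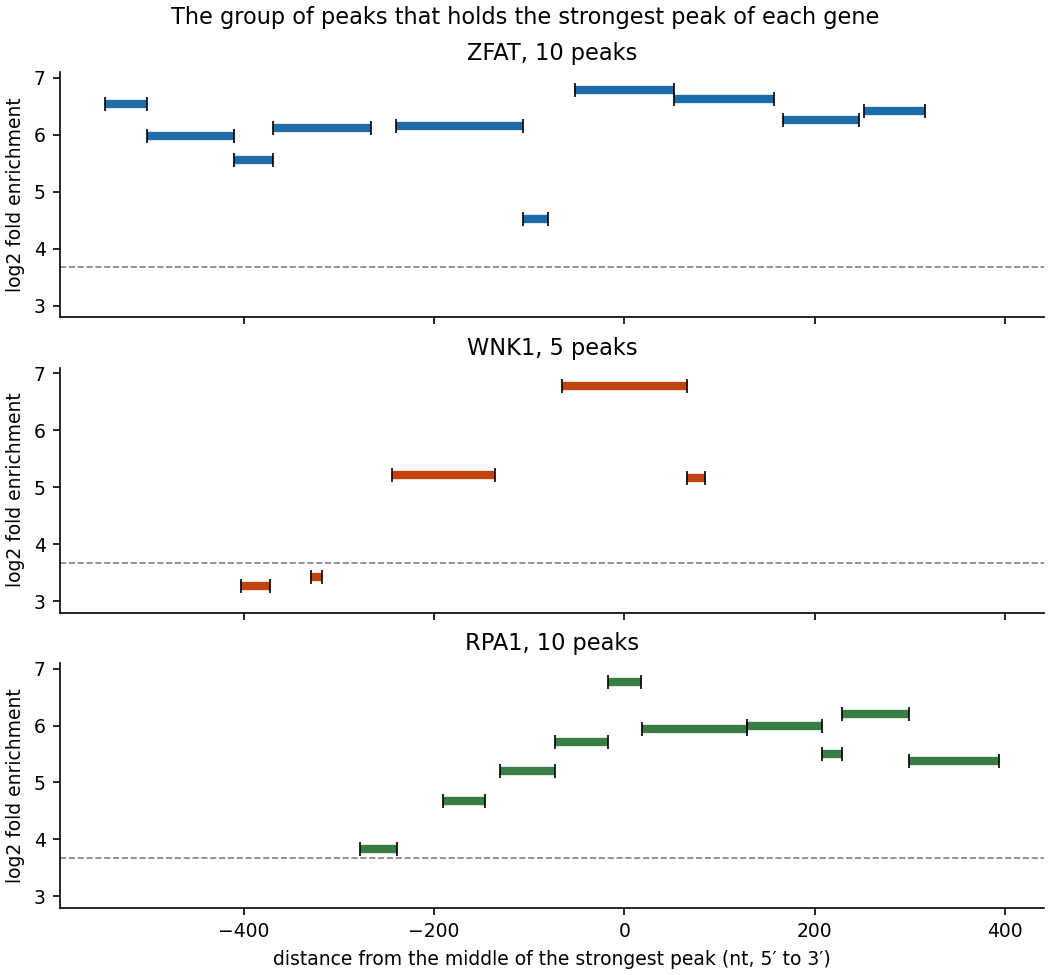
Log2 fold enrichment (y axis, +Dox over No Dox) of the peaks in the group that holds the strongest peak of each gene, against the distance from the middle of that peak in nt, from 5′ to 3′ (x axis). Each line is a peak drawn at its width, and the dashed line is the median of all human peaks, 3.68. The ZFAT group is high at both ends and has a peak of 27 nt at 4.53 between them. The WNK1 group has 1 summit, and the RPA1 group climbs from 3.84 to 6.76 and then stays above 5.

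Among the 9787 groups of the whole list, that of ZFAT had the most peaks at or above 6 on the log2 scale, 7 against 5 in the next. By the median of its peaks it ranked 2 of 9787, the RPA1 group ranked 9 and the WNK1 group of the strongest peak 53. Among the 420 groups of at least 8 peaks, ZFAT ranked 1 and RPA1 4. The WNK1 group, with 5 peaks, is not among these. By number of peaks, ZFAT and RPA1 had rank 123, which 67 groups of 10 peaks share. The last group of WNK1 ranked 636 by number of peaks and 6550 by median enrichment. The groups of the strongest peaks were picked for those peaks, which enter their medians and counts. Their high ranks by enrichment follow in part from that choice, and nothing is read from them.

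The peaks were found on the strand of the gene alone. Inside the 3 bodies, 0 peaks lay on the opposite strand. No peak of either strand lay within 1 body length on either side of any of the genes. The nearest peak beyond the 3′ end was 185 kb away for RPA1, 268 kb for WNK1 and 1218 kb for ZFAT. Beyond the 5′ end it was 226 kb for WNK1, 279 kb for RPA1 and 5042 kb for ZFAT. In peaks for each 10 kb of body, RPA1 had 1.42, WNK1 1.38 and ZFAT 0.680. The peaks cover between 0.620% of the body in ZFAT and 0.941% in WNK1.

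Enrichment and −log10 p went together in ZFAT and RPA1, and less so in WNK1. Across the peaks of a gene Spearman's rho was 0.78 over 16 peaks in ZFAT, 0.77 over 10 in RPA1 and 0.32 over 22 in WNK1. This describes the peaks, which share libraries and often touch. In the authors' methods both values of a peak come from the same read counts, so neither is separate support for the other. Between enrichment and width rho was 0.04 in ZFAT, 0.18 in RPA1 and 0.54 in WNK1. The −log10 p of a gene ran from 4.26 to the cap of 400 in ZFAT. It ran from 4.40 to 131 in WNK1 and from 13.9 to 71.3 in RPA1. The single member at 400 is the ZFAT peak at chr8:134510548-134510639, whose log2 fold enrichment of 5.98 ranked 8 of 16 in the gene. The peaks that touch it had 46.3 and 54.3, which are not compared in size with a capped value. Without read counts, how many reads lie behind a given p is unknown, and the part of depth in these relations was not tested.

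**Figure D4:**
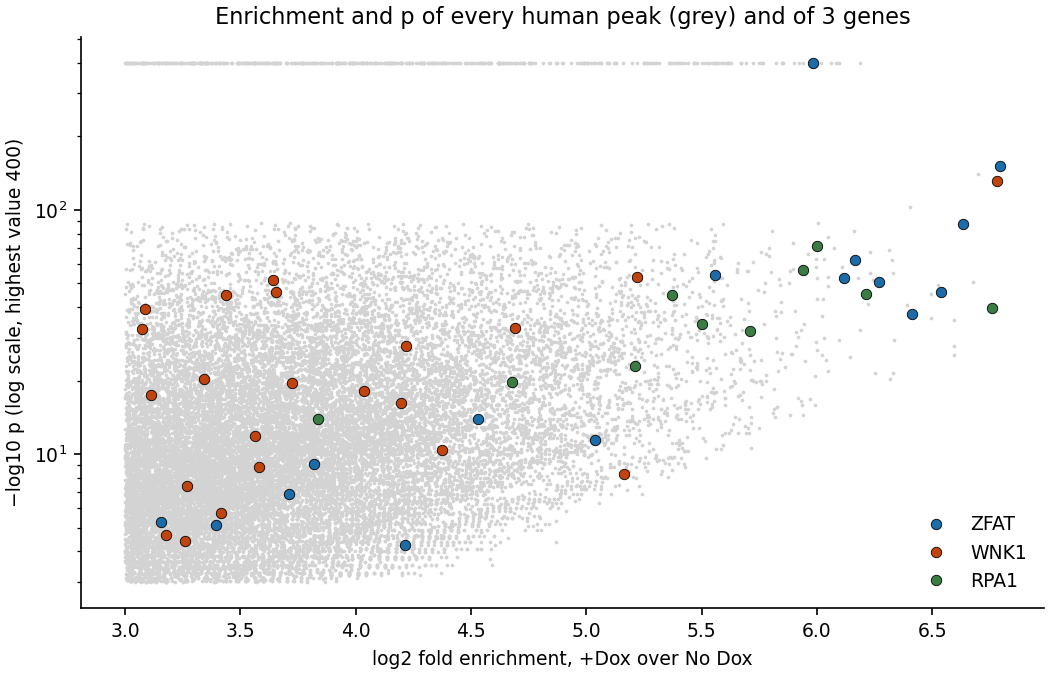
−log10 p (y axis, log scale, highest value 400) against log2 fold enrichment (x axis, +Dox over No Dox) of all human peaks (grey) and of the peaks of ZFAT, WNK1 and RPA1 (coloured points). The strongest peaks of ZFAT and WNK1 lie at the upper right, at 150.5 and 131, the strongest of RPA1 lower at 39.5, and 6 WNK1 peaks from the last group lie at the left between 20.3 and 51.6.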

How the data were processed

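The authors took molecular identifiers and adapters off the reads (umi_tools, cutadapt) and set aside reads of repetitive elements. They aligned the remainder to hg38 plus the minigene (STAR), collapsed duplicates by identifier and called peaks (CLIPper). For each peak they calculated an enrichment and a p over the paired input, and they compared conditions by the same method. The deposited human list gives each peak a log2 fold enrichment, which the authors took from read counts scaled to each library's total. It also gives a −log10 p-value, for which the authors used a chi-square test with Yates' correction or, for low counts, Fisher's exact test. The name of the list carries IDR, the abbreviation of the irreproducible discovery rate, a measure of how well peaks repeat between replicates. Its settings are not given in the sources used here.

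Peaks had to overlap a gene body by at least 1 nt on its strand, and positions were counted from 1. Groups were same-strand peaks at most 500 nt apart. Genes, distances and thresholds were chosen with earlier results of these data known. The peaks to be named were the strongest of each gene, those of its largest group and those of at least 5 on the log2 scale, and the others were named after their values were seen. Human sequence, exons, motifs, pathway genes and both minigene lists were not used here. Overlap and grouping were tested on simulated data (Python 3.11.15, pandas 2.3.3, numpy 2.4.6, scipy 1.17.1, matplotlib 3.10.9).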

Additional observations from a re-analysis of the deposited data

How the results depend on the processing

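No paired analysis was possible because the list holds 1 value per peak after merging of replicates, and no replicate could be left out. Counting either strand, or peaks wholly inside the body, changed no count. With the joint threshold of 4 on the log2 scale and 1e-05 for p, WNK1 went from 22 peaks to 8. A higher threshold can only keep or lower a count of peaks. The WNK1 median went from 3.61 to 4.53, the WNK1 groups from 8 to 4 and the ZFAT groups from 5 to 2. Joining abutting peaks left 4 regions of the 10 RPA1 peaks and moved the median position in ZFAT from 86.1% to 48.4% of the body, since its last group shrinks to 5 regions. Taking abutting peaks alone as a group, an alternative chosen after seeing the data, gave 11 groups in ZFAT, 15 in WNK1 and 4 in RPA1. The other 30 of 39 values, among them groups at 100 and 1000 nt and medians without the strongest peak, stayed within 1.5-fold for counts or within 1 SD of the gene's peaks. The SD is over peaks, not replicates. Unknown depth limits every value: a stretch without a listed peak can hold reads under the threshold.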

Other observations

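The −log10 p of the list has a break that touches these genes. Apart from the 510 peaks at 400, 4 peaks had a value above 90, and the highest of the others was 88.1. The strongest peaks of ZFAT (150.5) and WNK1 (131) are 2 of the 4. All 4 had a log2 fold enrichment of at least 6.40, whereas the peaks at 400 reached 6.18 at most. Ranks by p above about 90 therefore set few values against each other, and the cause of the break was not tested.

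The log2 fold enrichments repeat. The list has 12674 distinct values at 6 decimals among its 24831 peaks, and 60.0% of peaks share theirs with at least 1 other. Of the 48 peaks in ZFAT, WNK1 and RPA1, 15 do.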
